A study of Mus musculus with 32 samples.

Results

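The collagens of the mouse were followed as 44 genes, those of the 55291 gene symbols in the counts whose name is Col, a number, the letter a and a number. Expression values did not enter this choice. By the structure of the protein they fell into 8 classes: 11 fibrillar genes, 6 of the basement membrane network (type IV), 6 of beaded filaments (type VI), 3 of hexagonal networks, 9 of fibril-associated (FACIT) and related collagens, 4 of transmembrane collagens, 2 multiplexins and 3 of the anchoring fibril and other kinds.

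Collagens are secreted or membrane-bound proteins whose alpha chains wind around each other into a rope-like helix. In the colon wall, fibroblasts make most of the fibrillar collagen of the lamina propria and submucosa, type IV collagen forms the sheet under epithelium, vessels and muscle, and type VI collagen links both. After injury, fibroblasts raise the fibrillar chains, the procollagen is modified, trimmed and crosslinked by dedicated enzymes, and matrix metalloproteinases remove it again.

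Total RNA of whole colon and of tumors was sequenced from mice with (WT, *Dnase1l3*+/+) and without (KO, *Dnase1l3*-/-) the secreted DNase DNASE1L3, with 1 library per mouse and tissue. All groups were on the C57BL/6 background, the KO was constitutive and in the whole body, and by the Methods the mice were 3 months old when they entered the AOM/DSS model, in which the carcinogen azoxymethane (AOM) was injected and dextran sulfate sodium (DSS), which injures the colon epithelium, was then given in cycles in the drinking water. Colon of 4 mice per genotype was taken untreated (D0), after 1 DSS cycle and 5 days of recovery (D19), and 24 days after 3 cycles (D80), and tumors came from 5 WT and 3 KO mice after 3 cycles. D80 colon and a tumor were sequenced from the same mouse in 3 WT and 3 KO mice.

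The libraries held between 18951121 and 47623288 counts, with a median of 34333251, and the 44 collagens together took between 0.0231% and 0.944% of them. With 1 library per mouse and tissue, p-values measure the spread between mice and between their preparations together. In bulk RNA, fewer cells of a type and less RNA per cell cannot be told apart. *Dnase1l3* itself was counted in KO libraries of every group, at 3.24 ± 1.39 CPM at D0 (SD, n = 4, WT 2.70 ± 0.787), 3.85 ± 2.51 CPM at D19 (WT 8.14 ± 0.670), 5.54 ± 4.22 CPM at D80 (WT 6.08 ± 2.88) and 5.37 ± 2.73 CPM in tumors (n = 3, WT 6.64 ± 3.56, n = 5). The genotypes overlapped except at D19, where each KO library (0.675 to 6.79 CPM) was below each WT library (7.29 to 8.84 CPM), and none of the 4 differences passed edgeR's quasi-likelihood test (adjusted p = 0.444 at D19). Counts over the whole gene therefore do not check the genotype labels, and WT and KO stand for the labels throughout. From its own assays of this strain, the study reports strongly reduced *Dnase1l3* expression in every intestinal segment. It also reports that KO serum was defective in digesting DNA and chromatin.

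A set of 3 libraries stood apart. In WT D80 mouse 581, mitochondrially encoded mRNAs took 15.1% of the counts and collagens 0.0231%, against 0.171% to 0.248% in the other WT D80 mice. Collagens took 0.0855% in KO D19 mouse 811 (mitochondrial share 10.6%), against 0.310% to 0.944% in the other KO D19 mice, and 0.123% in KO tumor 544 (mitochondrial share 8.02%), against 0.202% and 0.245% in the other KO tumors. The summed level of 11 fibroblast markers was less far from the group in these colons: 549 CPM in mouse 581 against 631 to 702 CPM in its group, and 982 CPM in mouse 811 against 618 to 1170 CPM. The endothelial and pericyte marker sums lay below all other libraries of the group in both colons, and the smooth muscle sum in neither. In mouse 581 the endothelial and pericyte sums were 42.3 and 97.2 CPM, against 124 to 155 and 204 to 275 CPM. In mouse 811 they were 63.6 and 119 CPM, against 117 to 208 and 245 to 271 CPM. The part of RNA quality and of cell composition in the collagen values of these libraries was not tested. Results that rest on these libraries are given with and without them where both fits were run.

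Collagen transcripts of untreated colon came from few genes. Of all collagen counts in WT D0 colon, 60.8% belonged to *Col3a1*, *Col4a1*, *Col4a2*, *Col1a1* and *Col1a2*, and in KO D0 colon the same 5 genes ranked first with 59.8%. Levels between genes were compared per length, as CPM (counts scaled by library size after TMM normalization) per kb of annotated exon. Over all 32 libraries, *Col3a1*, the chain of type III collagen, led with a mean of 71.7 CPM per kb, followed by *Col4a1* (35.1), *Col1a1* (35.1), *Col4a2* (26.6), *Col6a1* (23.1) and *Col1a2* (21.1 CPM per kb). *Col18a1* led the multiplexins (12.3 CPM per kb), *Col12a1* the FACIT class (5.13), *Col8a1* the hexagonal networks (2.22), *Col23a1* the transmembrane collagens (1.70) and *Col28a1* the anchoring fibril and other kinds (0.704 CPM per kb). At the other end, *Col26a1*, *Col6a6*, the cartilage chain *Col2a1* and *Col19a1* had 29 to 125 counts in total over the 32 libraries and passed the low count filter in none of the 14 comparisons. The remaining 40 genes were tested in at least 1 comparison and 28 in all.

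**Figure D1:**
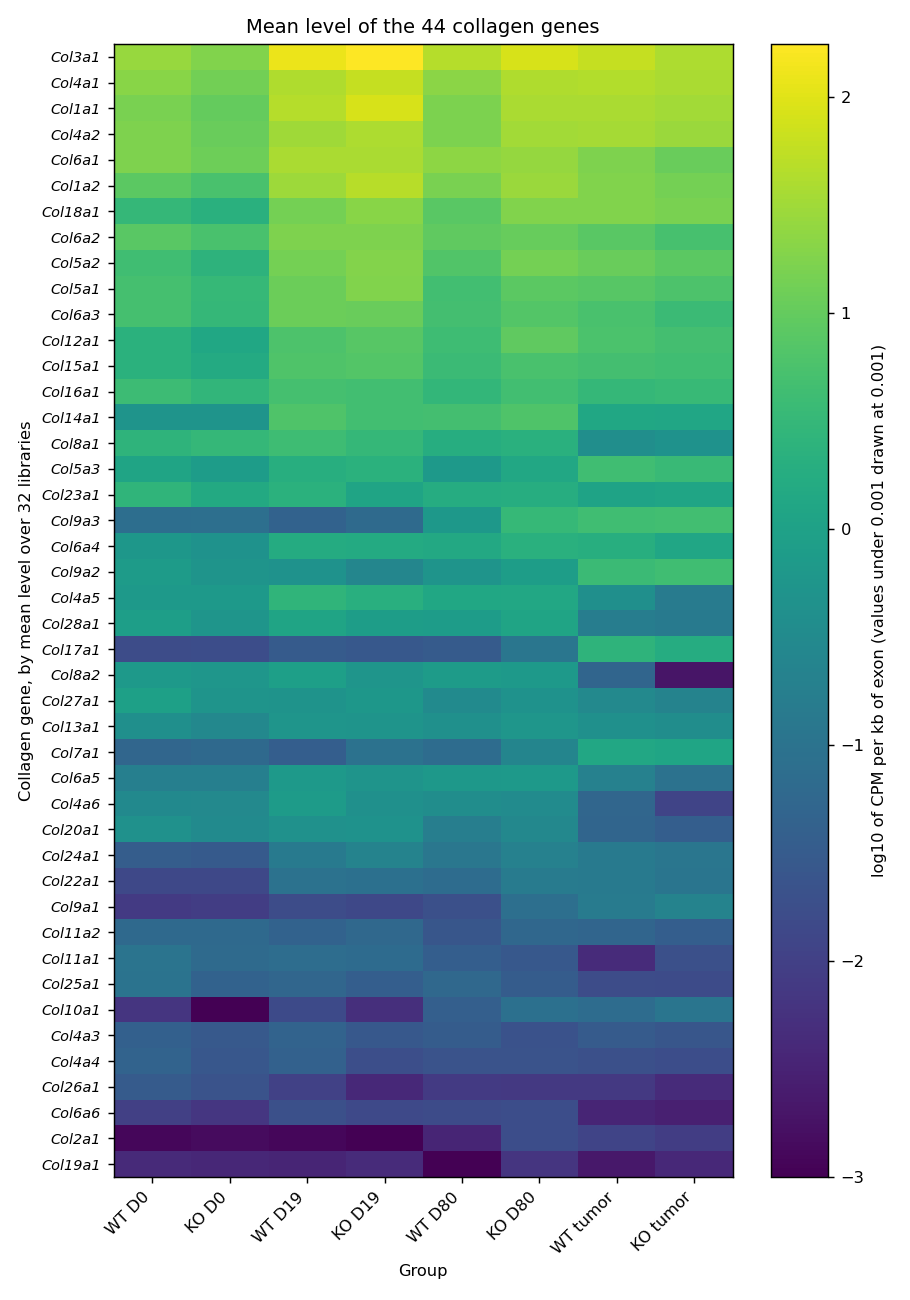
Mean level of each collagen gene (rows, ordered by mean level over all libraries) in each of the 8 groups (columns), as log10 of CPM per kb of exon, with values under 0.001 drawn at 0.001. Fibrillar, type IV and type VI chains are the brightest rows, the D19 columns are the brightest for *Col3a1* and *Col1a1*, and *Col17a1* and *Col7a1* are bright in the tumor columns.

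Fibrillar genes were the largest class in all 8 groups, and type IV genes came next in all but WT D80 colon, where type VI genes had 16.7% and type IV genes 15.7%. Without mouse 581 type IV genes came next there too, with 17.9% against 15.4%. Fibrillar genes held 47.0% ± 1.06 (SD, n = 4) of collagen counts in WT D0 colon, 58.9% ± 5.64 at D19, 53.6% ± 4.60 at D80 and 53.0% ± 1.51 (SD, n = 5) in WT tumors. In KO colon the fibrillar share was 46.3% ± 2.86 at D0, 67.7% ± 5.63 at D19 and 55.9% ± 1.05 at D80 (SD, n = 4 each), and in KO tumors it was 50.6% ± 2.81 (SD, n = 3). The type VI share went from 17.3% ± 0.228 (SD, n = 4) in WT D0 colon to 9.17% ± 2.52 (SD, n = 5) in WT tumors, and that of the hexagonal networks from 2.09% ± 0.804 to 0.148% ± 0.0346.

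Several collagen genes lie side by side in the genome (GENCODE M21 on GRCm38). *Col4a1* and *Col4a2* on chromosome 8, *Col4a3* and *Col4a4* on chromosome 1, and *Col4a5* and *Col4a6* on the X chromosome each face away from a shared start region, with 21, 72 and 1309 bases between the gene starts. *Col3a1* and *Col5a2* lie tail to tail on chromosome 1, and *Col6a4*, *Col6a5* and *Col6a6* follow each other on 1 strand of chromosome 9. The annotated exons of *Col4a1* and *Col4a2* overlap by a short stretch (0.3% and 1.0% of their exon bases), whose reads cannot be assigned without strand.

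Upstream sequences are shown for a pair of fibrillar genes that rose at D19 and for the pair of epithelial attachment collagens that rose in tumors. Each is the 250 bases before the RefSeq start on GRCm38.p6, 5′ to 3′ on the strand of the gene, and ends at the base before the start. Capitals mark the letters of a CCAAT box (CCAAT or, on the other strand, ATTGG), a GC box (GGGCGG or CCGCCC) or a TATA box (TATAAA or TTTATA).
Col1a2, chr6:4505368-4505617, plus strand: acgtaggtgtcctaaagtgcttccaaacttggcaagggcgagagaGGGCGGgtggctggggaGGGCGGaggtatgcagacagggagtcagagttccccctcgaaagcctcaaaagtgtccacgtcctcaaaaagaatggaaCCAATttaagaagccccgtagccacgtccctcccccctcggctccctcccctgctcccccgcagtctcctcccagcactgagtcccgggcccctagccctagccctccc
Col3a1, chr1:45311288-45311537, plus strand: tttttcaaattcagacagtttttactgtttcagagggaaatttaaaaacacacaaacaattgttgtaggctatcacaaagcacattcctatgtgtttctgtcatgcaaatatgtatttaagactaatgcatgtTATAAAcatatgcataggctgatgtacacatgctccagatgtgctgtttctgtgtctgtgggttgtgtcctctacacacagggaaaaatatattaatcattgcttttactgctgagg
Col17a1, chr19:47692043-47692292, minus strand: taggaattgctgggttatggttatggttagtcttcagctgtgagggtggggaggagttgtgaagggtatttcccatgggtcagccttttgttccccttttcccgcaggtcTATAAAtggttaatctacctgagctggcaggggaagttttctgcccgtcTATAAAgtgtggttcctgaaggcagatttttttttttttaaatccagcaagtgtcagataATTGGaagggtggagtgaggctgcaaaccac
Col7a1, chr9:108953336-108953585, plus strand: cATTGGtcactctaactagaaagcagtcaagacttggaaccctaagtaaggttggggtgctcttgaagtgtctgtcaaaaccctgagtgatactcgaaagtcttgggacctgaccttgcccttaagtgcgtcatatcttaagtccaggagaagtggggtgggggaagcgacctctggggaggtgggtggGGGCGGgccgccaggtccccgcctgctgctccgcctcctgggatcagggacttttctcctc
The *Col1a2* stretch has a CCAAT box 109 to 105 bases before the start and a pair of GC boxes farther out, the first at 205 to 200, and its GC content is 62.0%. *Col3a1* has neither, but a TATA box 117 to 112 bases before the start, in a stretch with 35.2% GC. *Col17a1* has a pair of TATA boxes (140 to 135 and 91 to 86) and a CCAAT box on the other strand at 31 to 27, and *Col7a1* has a GC box at 61 to 56 and a CCAAT box on the other strand at 249 to 245. Of the 44 collagen genes, 35 had such a stretch in the RefSeq table, and 13 of the 35 held the CCAAT letters, 21 the GC box and 5 the TATA letters. Among all 32526 stretches of the same length these shares were 33.8%, 33.0% and 12.3%. A match is a description of letters and not of a bound site.

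The comparison of D19 with D0 asked how the colon differed after the first DSS cycle. The genes that rose belonged mostly to the fibrillar class (6 of 10 tested in WT and 5 of 10 in KO colon), the type VI beaded filaments (5 and 3 of 5) and the multiplexins (2 of 2 in both). A gene was called at a Benjamini-Hochberg adjusted p under 0.05 over all genes tested and a fold change over 2 in edgeR's quasi-likelihood test. In WT colon, 18 of 36 tested collagen genes rose, against 9.33% of all genes tested, and 1 fell, against 4.04%. In KO colon 12 of 36 rose, against 8.95%, and 0 fell (2.52% of all genes). DESeq2 called 18 higher in each genotype (6.14% and 6.36% of all genes), 2 lower in WT (2.58%) and 0 lower in KO colon (2.13%), and *Col9a2* had an unadjusted p under 0.05 in the downward direction. The median log2 fold change of the tested collagens was 0.996 in WT and 1.48 in KO colon, against 0.004 and 0.026 over all genes.

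*Col3a1* was at 267, 168, 234 and 376 CPM in WT D0 libraries and at 705, 707, 1726 and 1671 CPM in WT D19 libraries. In KO colon it was at 211, 178, 165 and 141 CPM at D0 and at 472 (mouse 811), 913, 3044 and 2451 CPM at D19. Every D19 library lay above every D0 library of its genotype, and the D19 libraries themselves spread widely. The log2 fold change was 2.15 ± 0.35 (SE) in WT (adjusted p = 0.000992) and 3.27 ± 0.55 in KO colon (adjusted p = 0.00320).

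*Col1a1*, which encodes the main chain of type I collagen, was at 104, 61.9, 81.2 and 160 CPM in WT D0 libraries and at 134, 135, 490 and 428 CPM at D19. KO libraries were at 72.8, 79.7, 49.0 and 61.8 CPM at D0 and at 97.7 (mouse 811), 358, 957 and 785 CPM at D19. The WT groups overlapped, since 2 D19 mice were below the highest D0 mouse, and the KO groups did not. It rose by 1.49 ± 0.46 (SE) on the log2 scale in WT (adjusted p = 0.0230) and by 3.03 ± 0.59 in KO colon (adjusted p = 0.00739). Its partner chain *Col1a2* rose by 1.84 ± 0.38 in WT and 3.11 ± 0.46 in KO colon, and *Col5a2*, which regulates fibril width, by 1.65 ± 0.34 and 2.92 ± 0.59. *Col5a1* rose in both as well (1.17 and 2.41), and the cartilage-type chains *Col11a1* and *Col11a2* were not called. *Col24a1* was called in WT colon (1.81) and had 2.79 with an adjusted p of 0.0734 in KO colon. In KO colon it was called by DESeq2 (2.78, adjusted p = 0.00859) and by edgeR without mouse 811 (3.17, adjusted p = 0.0018). *Col27a1* was the fibrillar gene that fell in WT colon (-1.02 ± 0.25), and its value was 0.18 ± 0.70 in KO colon.

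**Figure D2:**
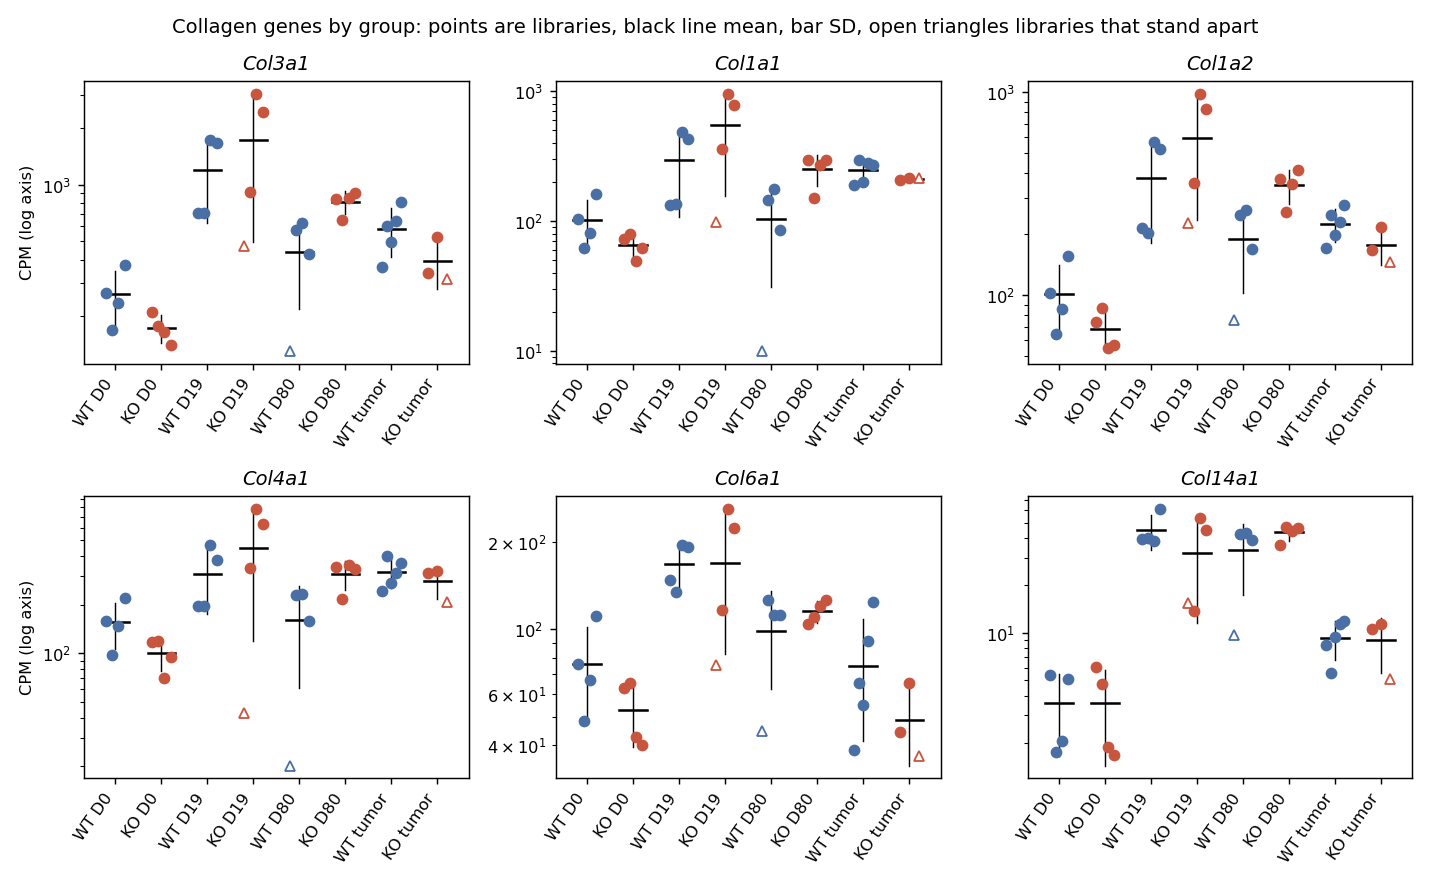
Level in CPM (vertical axes, log scale) of *Col3a1*, *Col1a1*, *Col1a2*, *Col4a1*, *Col6a1* and *Col14a1* in each library of the 8 groups (horizontal axis; WT blue, KO red), with the mean as a black line, the SD as a bar and the libraries that stand apart as open triangles. D19 lies above D0 for *Col3a1* in both genotypes, and the WT D80 triangle (mouse 581) is at 9.97 CPM for *Col1a1*.

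Of the 6 basement membrane chains, 2 were called in WT and 0 in KO colon, where *Col4a5* (1.61 ± 0.47, adjusted p = 0.0524) was called without mouse 811 and by DESeq2. *Col4a1* was at 158, 98.1, 147 and 219 CPM in WT D0 libraries and at 197, 197, 470 and 380 CPM at D19, and the groups overlapped (log2 fold change 0.95 ± 0.31, adjusted p = 0.0309, under 2-fold). In KO colon it was 2.12 ± 0.67 higher with an adjusted p of 0.0702, and 2.50 higher with an adjusted p of 0.000208 without mouse 811. *Col4a2* had 0.78 ± 0.29 in WT and 1.80 ± 0.68 in KO colon, and it too was called in KO colon without mouse 811 (2.17). *Col4a5* (1.92 ± 0.33) and *Col4a6* (1.23 ± 0.31), the chains of smooth muscle and epithelial basement membranes, rose in WT colon, and *Col4a3* and *Col4a4* stayed near 0 change (0.10 and -0.16).

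Of the 5 tested type VI genes, all rose in WT and 3 in KO colon. *Col6a1* was at 76.2, 48.4, 67.2 and 111 CPM in WT D0 libraries and at 149, 134, 195 and 193 CPM at D19, with no overlap (1.10 ± 0.23, adjusted p = 0.00325), and it rose by 1.66 ± 0.38 in KO colon. *Col6a4* (1.48 and 1.70) and *Col6a2* (1.04 and 1.64) were called in both genotypes. Without mouse 811 edgeR also called *Col6a3* (2.155, adjusted p = 0.00176) and *Col6a5* (1.868, adjusted p = 0.00145) higher in KO colon. DESeq2 called *Col6a3* there over all libraries (1.77, adjusted p = 0.0151).

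Among the FACIT class, *Col14a1*, a collagen on the fibril surface made by fibroblasts, changed the most in WT colon of all collagens. It was at 5.37, 1.77, 2.06 and 5.12 CPM in WT D0 libraries and at 39.4, 40.0, 38.5 and 61.5 CPM at D19 (3.58 ± 0.34, adjusted p = 8.56e-05). KO libraries were at 6.09, 4.77, 1.89 and 1.69 CPM at D0 and at 15.5 (mouse 811), 13.7, 53.8 and 45.2 CPM at D19 (3.12 ± 0.59, adjusted p = 0.00631). *Col12a1*, another fibril-associated chain, rose by 1.38 ± 0.29 in WT and 2.45 ± 0.69 in KO colon. *Col22a1*, a collagen of tissue junctions, rose in WT colon (2.67 ± 0.36) from at most 0.187 CPM to between 0.669 and 1.013 CPM, and was below the low count filter in KO colon. There it was called higher by DESeq2 (2.58, adjusted p = 0.00682) and by edgeR without mouse 811 (2.95, adjusted p = 0.000875). Both multiplexins, whose C-terminal fragments include endostatin, rose in both genotypes: *Col18a1* by 2.14 ± 0.41 and 3.24 ± 0.61, and *Col15a1* by 1.48 ± 0.22 and 2.07 ± 0.58. None of the tested hexagonal network, transmembrane or anchoring fibril genes was called by edgeR over all libraries, while *Col13a1*, a transmembrane collagen, was called higher in KO colon without mouse 811 (1.13, adjusted p = 0.0116), and *Col26a1*, below edgeR's filter, was called lower in WT colon by DESeq2 (-1.73, adjusted p = 0.0476).

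**Figure D3:**
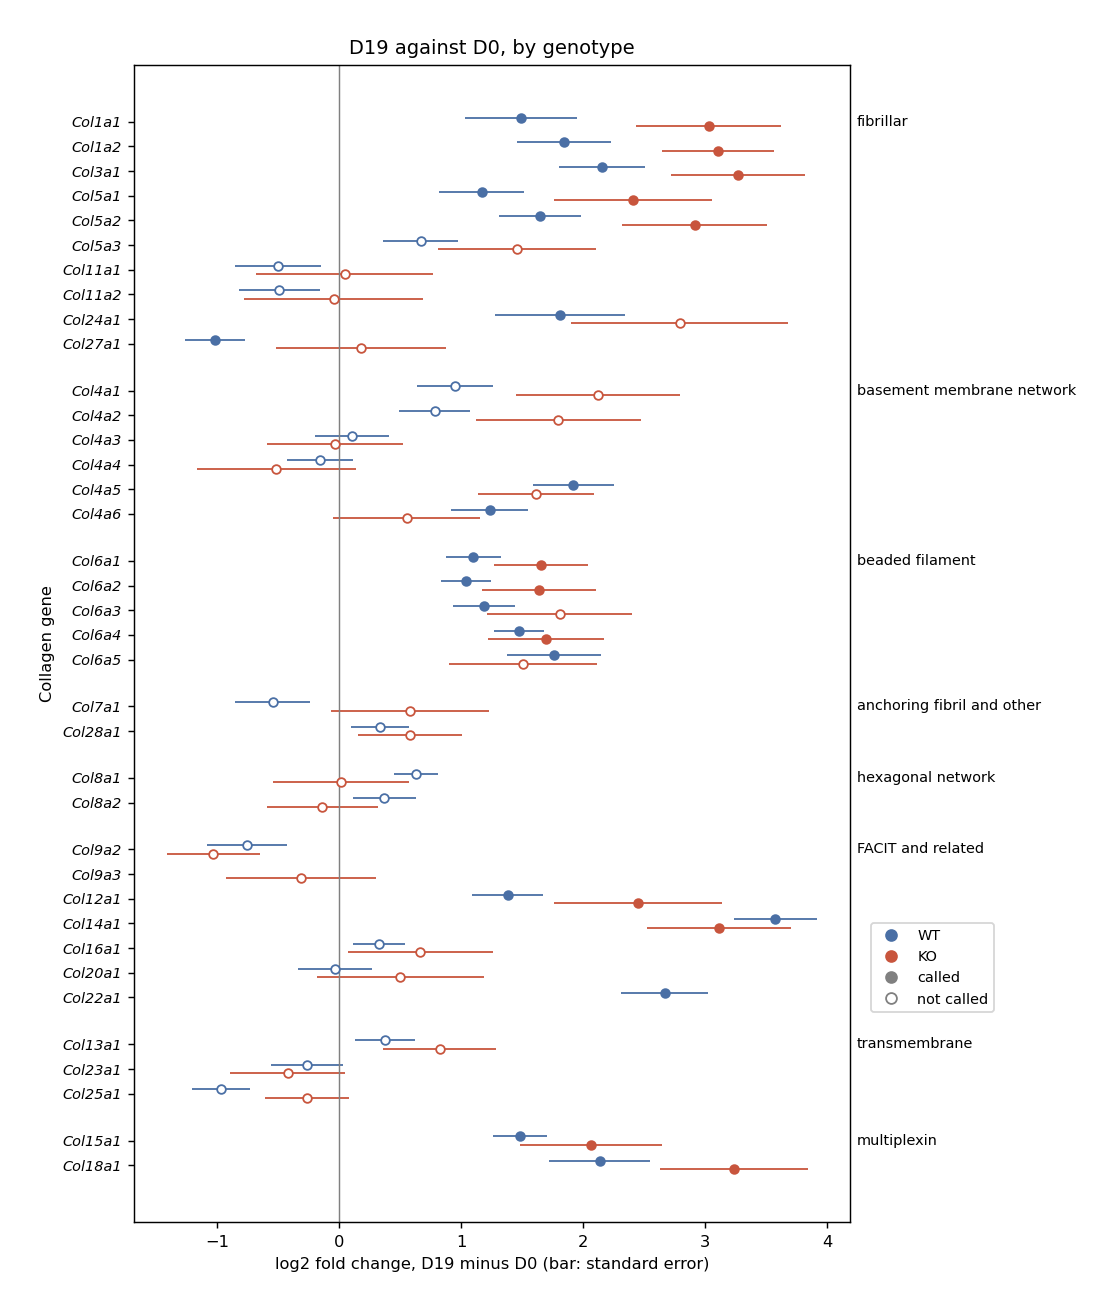
Log2 fold change of D19 over D0 (horizontal axis, with SE bars) for each tested collagen gene (vertical axis, by class) in WT (blue) and KO (red) colon, filled where called. The beaded filament and multiplexin genes and 7 of the 10 fibrillar genes lie to the right of 0 in both genotypes, and the SE bars are longer in KO.

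The KO count rested on its libraries. Without mouse 811, 22 of 37 tested collagens rose in KO colon, against 11.6% of all genes, 0 fell (3.78%), and with any 1 of the other 7 libraries left out 6 or 7 did. The difference between the genotypes in the D19 change was tested itself as an interaction: 0 of 37 collagens were called in edgeR (0 at an unadjusted p under 0.05, lowest adjusted p = 0.628), against 0.0% of all genes in the direction of a larger rise in KO and 0.0298% in the other. DESeq2 called 0 (0.182% and 0.275% of all genes) with 2 at an unadjusted p under 0.05. The median difference was 0.54 on the log2 scale, and without mouse 811 it was 0.84, with 17 collagens at an unadjusted p under 0.05 and still 0 called (0.0147% and 0.147% of all genes). *Col1a1* had a difference of 1.53 ± 0.77, and *Col3a1* one of 1.11 ± 0.65.

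Markers of several cell types moved with the D19 collagens. Of 11 fibroblast markers, 8 rose in WT and 10 in KO colon and 0 fell, and their summed level went from 150 to 317 CPM in WT D0 libraries to 662 to 963 CPM at D19. All 6 endothelial markers and all 4 leukocyte markers rose in both genotypes, and 6 (WT) and 3 (KO) of 9 smooth muscle markers fell. The posterior gut genes also differed in WT colon, where 4 of 5 rose (*Hoxd13*, *Hoxd11*, *Hoxd12*, *Hoxb13*), while 0 of 5 were called in KO colon. Of 4 pericyte markers 2 rose and 1 fell in each genotype, of 7 enteric neuron and glia markers 2 fell in WT and 1 in KO colon, and 1 adipocyte marker fell in WT and 1 skeletal muscle marker in each. The epithelial (7 genes), mesothelial (3) and basal squamous (2 tested) markers had no call. The part of cell composition and of the position along the gut in the collagen changes was not tested.

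The genes that make and remove collagen were followed as lists. Of 32 biosynthesis genes, 7 rose in WT and 15 in KO colon at D19, beside 9.33% and 8.95% of all genes, and 0 fell. *Lox*, which crosslinks fibrils, rose by 3.41 ± 0.58 and 5.23 ± 0.46 on the log2 scale, and the procollagen peptidase enhancer *Pcolce* by 1.20 ± 0.22 and 1.92 ± 0.27. *Pcolce2* (2.67 and 3.03) and the procollagen peptidase *Tll1* (2.46 and 2.45) rose in both, while the collagen chaperone gene *Serpinh1* was among those called in KO colon (1.73 ± 0.30). Of the degradation genes, 6 of 11 tested rose in WT and 8 of 12 in KO colon. The collagenase *Mmp13* rose by 3.81 ± 0.77 and 6.21 ± 0.34, the inhibitor *Timp1* by 2.94 ± 0.86 and 6.10 ± 0.39, the gelatinase *Mmp2* by 2.04 ± 0.32 and 2.96 ± 0.30, and the collagen-cleaving protease *Ctsk* by 2.10 ± 0.34 and 3.07 ± 0.22. Of 10 tested receptor genes, 3 rose in WT and 2 in KO colon: the inhibitory leukocyte receptor *Lair1* (2.72 and 3.16) and the uptake receptor *Mrc2* (1.67 and 2.69) in both, and the integrin chain *Itga11* in WT (1.57). The tyrosine kinase receptor *Ddr1* had -0.68 ± 0.10 in WT colon, under 2-fold.

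D80 colon was compared with the same D0 libraries, so the D80 and D19 changes share their controls. In KO colon 22 of 36 tested collagens were higher at D80, against 13.4% of all genes, and 1 was lower, against 7.63%. *Col3a1* was at 841, 651, 845 and 905 CPM in the KO D80 libraries, all above the D0 libraries (2.17 ± 0.16, adjusted p = 7.80e-06). *Col1a2* rose by 2.32 ± 0.19, *Col18a1* by 2.98 ± 0.25, *Col12a1* by 2.76 ± 0.25, *Col5a2* by 2.45 ± 0.21, *Col6a4* by 2.14 ± 0.15, *Col15a1* by 1.75 ± 0.15 and *Col14a1* by 3.54 ± 0.38. Both main type IV chains were called here, *Col4a1* at 1.58 ± 0.20 and *Col4a2* at 1.50 ± 0.20. DESeq2 called 25 higher and 1 lower (8.85% and 5.12% of all genes). The gene that fell was *Col11a1* (-1.19 ± 0.38), and its call was lost when KO D0 mouse 853 or KO D80 mouse 527, 543 or 544 was left out. The attachment collagens *Col17a1* (2.74 ± 0.64) and *Col7a1* (1.86 ± 0.56) rose as well, in libraries whose summed basal squamous markers were at 14.6, 1.52, 12.3 and 6.66 CPM. Of 11 fibroblast markers 9 rose and of 9 smooth muscle markers 9 fell in KO colon at D80, against 6 and 4 in WT colon. All 4 leukocyte markers rose in both genotypes, and 5 of 6 endothelial markers rose in KO and 0 in WT colon. In WT colon all 6 endothelial markers had positive values without a call (median 1.01). Their summed level was 42.3 CPM in WT mouse 581 and 124 to 155 CPM in the other WT D80 mice, against 39.1 to 75.1 CPM in WT D0 colon. In KO D80 colon it was 145 to 170 CPM. Of 7 enteric neuron and glia markers 5 (KO) and 2 (WT) fell, and 2 of 3 tested posterior gut genes rose in WT and 0 of 5 in KO colon. The part of these in the collagen values was not tested.

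In WT colon 1 of 36 tested collagens was higher at D80, against 7.07% of all genes, and 0 were lower (3.25%). *Col14a1* was at 42.7, 42.8 and 38.6 CPM in the WT D80 libraries and at 9.69 CPM in mouse 581, above all D0 libraries (3.18 ± 0.55, adjusted p = 0.00672). DESeq2 called 4 higher and 1 lower, against 5.75% and 2.84% of all genes, and 6 collagens had an unadjusted p under 0.05 in edgeR. This count changed with mouse 581. Without it 12 collagens were higher, against 10.7%, among them *Col14a1* (3.45), *Col22a1* (2.57), *Col18a1* (1.70), *Col6a4* (1.67), *Col1a2* (1.11) and *Col3a1* (1.002), and *Col27a1* was lower (-1.25), against 6.09%. *Col1a1* was at 144, 178, 85.6 and, in mouse 581, 9.97 CPM.

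*Col9a3*, a chain of type IX collagen known from cartilage, set the D80 libraries apart from each other. It was at most 0.500 CPM in all D0 and D19 libraries of both genotypes. On the opposite strand, *Tcfl5* overlaps 6.1% of its exon bases. In KO D80 colon it was at 16.7, 16.4 and 15.9 CPM in mice 527, 543 and 544 and at 1.18 CPM in mouse 535. In WT D80 colon it was at 6.75 CPM in mouse 542 and between 0.394 and 1.37 CPM in the other 3. The 3 KO mice with high values also gave a tumor library, as did WT mice 542 (6.75 CPM), 541 (1.34 CPM) and 555 (1.37 CPM), while KO mouse 535 and WT mouse 581 (0.394 CPM) gave none. The log2 fold change of D80 over D0 in KO colon was 5.21 ± 0.79 (adjusted p = 0.000415), and that over D19 was 5.55 ± 0.89 (adjusted p = 0.0245).

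Between D19 and D80, *Col9a3* was the collagen called higher in KO colon (1 of 38, against 1.21% of all genes), and 0 were lower (0.441%), with 3 at an unadjusted p under 0.05 and 5 higher and 0 lower in DESeq2 (1.68% and 0.731% of all genes). In WT colon 0 of 38 were called in either direction in edgeR, against 0.00521% in each, with 6 at an unadjusted p under 0.05. DESeq2 called 1 higher in WT colon, again *Col9a3* (0.572% of all genes), and 0 lower (0.129%). *Col3a1* had log2 differences of -1.44 ± 0.50 in WT and -1.08 ± 0.50 in KO colon, with adjusted p of 0.770 and 0.425. Without KO mouse 811, 22 of 40 collagens had an unadjusted p under 0.05 in edgeR, and the median was -0.56, against -0.25 with it. *Col5a1* (-1.42) and *Col20a1* (-1.09) were then called lower, beside 156 of 20017 genes, and *Col9a3* stayed higher, beside 296. Without WT mouse 581, 13 of 38 had an unadjusted p under 0.05, and 0 were called, beside 18 higher and 5 lower of 19553 genes.

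Tumors were compared with D80 colon of the same genotype, so this comparison and that of D80 with D0 share the D80 libraries. *Col17a1*, *Col7a1*, *Col9a2* and *Col5a3* rose in both genotypes, and *Col8a1*, *Col8a2*, *Col4a6*, *Col14a1*, *Col20a1* and *Col28a1* fell in both. Collagens together took 0.174% to 0.304% of counts in WT tumors and 0.171% to 0.248% in WT D80 colon outside mouse 581, and 0.123% to 0.245% in KO tumors and 0.235% to 0.357% in KO D80 colon. In WT mice 6 of 37 tested collagens were higher in tumors, against 8.0% of all genes, and 7 were lower, against 13.5%. In KO mice 4 of 38 were higher, against 10.3%, and 14 were lower, against 16.4%. The mice that gave both tissues were also compared with the mouse as a replicate block, which uses 3 mice per genotype and leaves out WT colon 581: 10 of 39 were then lower in WT (16.1% of all genes) and 14 in KO tumors (13.6%), and 6 and 4 were higher (8.16% and 6.07%). Without the libraries that stand apart, 6 were higher and 11 lower in WT (8.85% and 16.5%), and 4 and 10 in KO tumors (6.8% and 16.3%). DESeq2 called 6 higher and 10 lower in WT (5.95% and 10.2%), and 4 and 12 in KO tumors (7.14% and 10.5%).

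*Col17a1* and *Col7a1*, which anchor basal cells of squamous and other stratified epithelium to the matrix, rose in tumors of both genotypes, and *Col17a1* had the largest increase of all tested collagens in each. *Col17a1*, the transmembrane collagen of hemidesmosomes, was at 0.0563 (mouse 581), 0.276, 0.299 and 0.126 CPM in WT D80 colon and at 11.6, 21.6, 37.1, 6.36 and 2.45 CPM in WT tumors. KO D80 colon had 0.933, 0.322, 0.570 and 0.921 CPM and KO tumors 11.7, 12.7 and 7.39 CPM. Tumors lay above colon in both genotypes without overlap, by 6.16 ± 0.90 on the log2 scale in WT (adjusted p = 0.00111) and 3.93 ± 0.35 in KO mice (adjusted p = 0.000303).

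*Col7a1*, the chain of anchoring fibrils, was at 0 (mouse 581), 1.10, 1.67 and 0.202 CPM in WT D80 colon and at 11.1, 29.4, 14.2, 12.7 and 4.19 CPM in WT tumors. In KO mice it was at 2.80, 0.708, 2.44 and 3.87 CPM in D80 colon and at 9.81, 10.7 and 16.6 CPM in tumors. It rose by 4.10 ± 0.89 in WT (3.77 without mouse 581) and 2.35 ± 0.49 in KO tumors. Basal squamous markers moved with both genes. *Krt5*, *Krt14* and *Trp63* were called higher in tumors of both genotypes, and their summed level, 1.52 to 14.6 CPM in D80 colon, was 381, 771, 872, 178 and 73.1 CPM in WT and 379, 323 and 217 CPM in KO tumors. WT tumor 555 was lowest of all tumors in *Col17a1*, in *Col7a1* and in this sum. KO tumor 544, by contrast, was lowest of the KO tumors in the sum (217 CPM) and in *Col17a1* (7.39 CPM) but highest in *Col7a1* (16.6 CPM). The part of squamous cells in the collagen values was not tested.

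**Figure D4:**
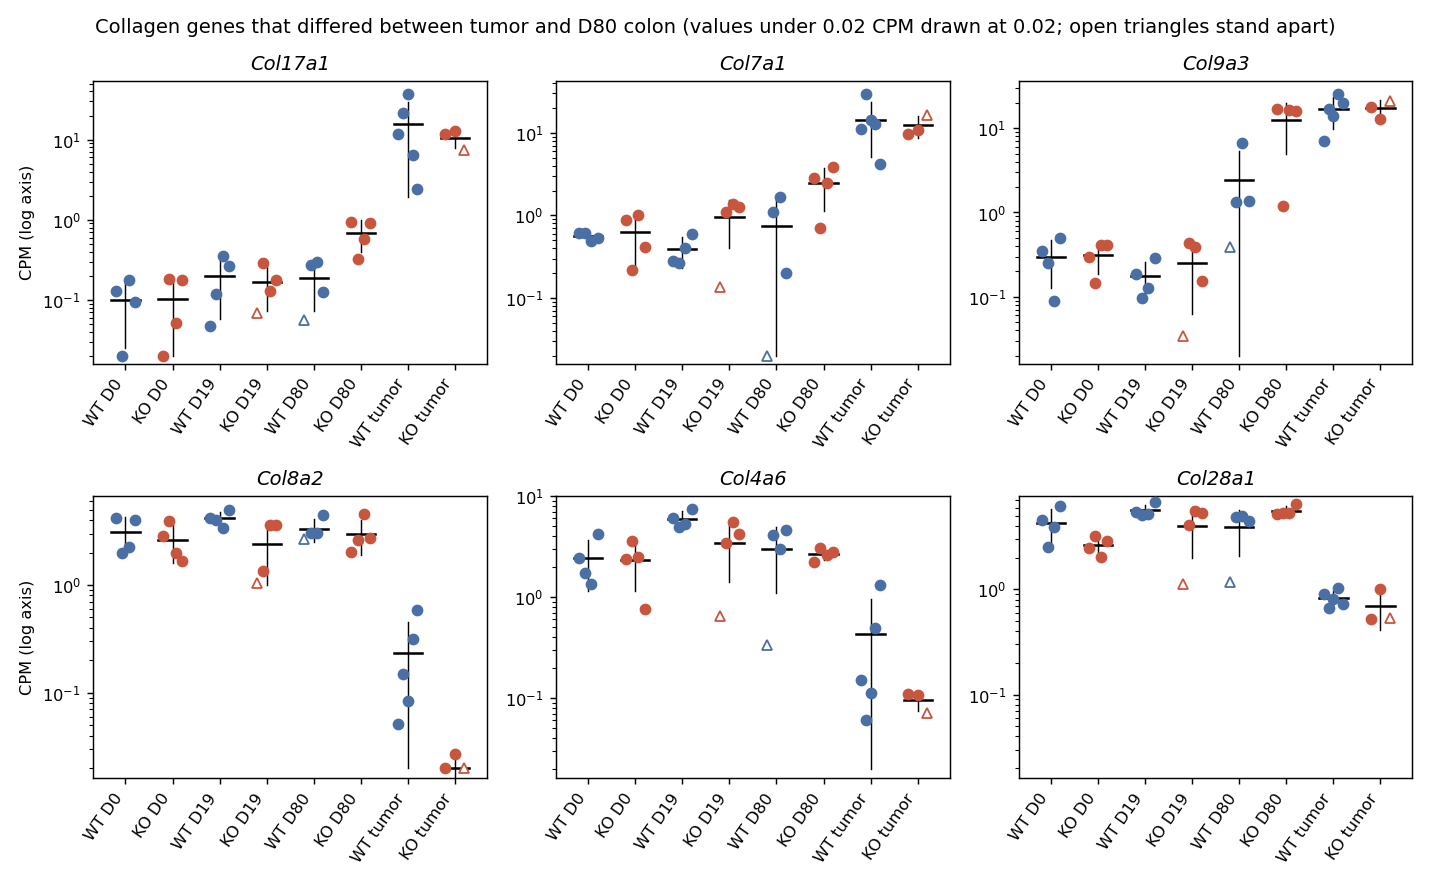
Level in CPM (vertical axes, log scale, values and bar ends under 0.02 drawn at 0.02) of *Col17a1*, *Col7a1*, *Col9a3*, *Col8a2*, *Col4a6* and *Col28a1* in each library of the 8 groups (horizontal axis; WT blue, KO red, libraries that stand apart as open triangles), with mean and SD. *Col17a1* and *Col7a1* are highest in tumors, and *Col8a2*, *Col4a6* and *Col28a1* lowest.

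The other genes that rose in tumors were *Col9a2* in both genotypes (2.74 ± 0.53 and 2.40 ± 0.41), *Col5a3*, a minor fibrillar chain, in both (2.50 ± 0.57 and 1.32 ± 0.23), and *Col9a1* (2.79 ± 0.43) and *Col9a3* (2.64 ± 0.70) in WT tumors. *Col9a3* was at 7.05, 17.01, 14.1, 25.5 and 19.999 CPM in WT and at 17.7, 13.1 and 21.4 CPM in KO tumors, beside 16.7, 16.4 and 15.9 CPM in the D80 colons of the 3 KO mice. The KO fit, which also holds D80 mouse 535, gave 0.47 ± 0.69 (adjusted p = 0.594).

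The hexagonal network genes *Col8a1* and *Col8a2*, products of vessel and other mesenchymal cells, fell in both genotypes. *Col8a2* was at 2.70, 3.03, 3.02 and 4.50 CPM in WT D80 colon and at 0.051, 0.150, 0.083, 0.314 and 0.581 CPM in WT tumors (-3.91 ± 0.56, adjusted p = 0.00102). In KO mice 427 counts in 4 D80 libraries faced 1 count in 3 tumors, a log2 ratio of -8.21 with a 95% counting interval from -13.52 to -5.73. *Col8a1* fell by 2.36 ± 0.40 in WT and 2.23 ± 0.35 in KO tumors.

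*Col4a6* was at 0.338 (mouse 581), 4.12, 2.99 and 4.58 CPM in WT D80 colon and at 0.152, 0.060, 0.111, 0.497 and 1.31 CPM in WT tumors, and the groups overlapped through mouse 581 and tumors 579 and 555 (-2.91 ± 0.86, adjusted p = 0.0282). In KO mice it was at 2.22, 3.02, 2.63 and 2.76 CPM in colon and at 0.109, 0.107 and 0.071 CPM in tumors, without overlap (-4.75 ± 0.30, adjusted p = 0.000125). Its neighbor *Col4a5* fell by 3.21 ± 0.24 in KO tumors and had -1.79 ± 0.71 (adjusted p = 0.0826) in WT tumors, with a call without mouse 581 (-2.14, adjusted p = 0.0187) and by DESeq2 (-1.77, adjusted p = 0.0363). There tumor 555 was at 7.63 CPM and the others were at 0.710 to 2.41 CPM. *Col4a1* and *Col4a2*, by contrast, were not called in either genotype (0.89 and 0.97 in WT, -0.18 and -0.23 in KO tumors).

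*Col28a1*, a collagen of peripheral glia, fell by 2.34 ± 0.37 in WT and 3.04 ± 0.27 in KO tumors, *Col14a1* by 1.95 ± 0.39 and 2.31 ± 0.25, and *Col20a1* by 1.90 ± 0.59 and 2.92 ± 0.32. *Col25a1* was called lower in WT tumors (-1.97 ± 0.59). In KO tumors *Col6a1* fell by 1.27 ± 0.19, *Col6a2* by 1.08 ± 0.19, *Col3a1* by 1.06 ± 0.23 and *Col1a2* by 1.01 ± 0.21, the last 2 just over 2-fold and at -0.94 and -0.91 without KO tumor 544. Without that tumor *Col6a2* was not called either, and *Col6a1* was (-1.12). The major fibrillar chains were not called in WT tumors, where *Col3a1* had 0.30 ± 0.40 and 0.002 without mouse 581, and *Col1a1* had 1.15 ± 0.59 and 0.76 without it.

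**Figure D5:**
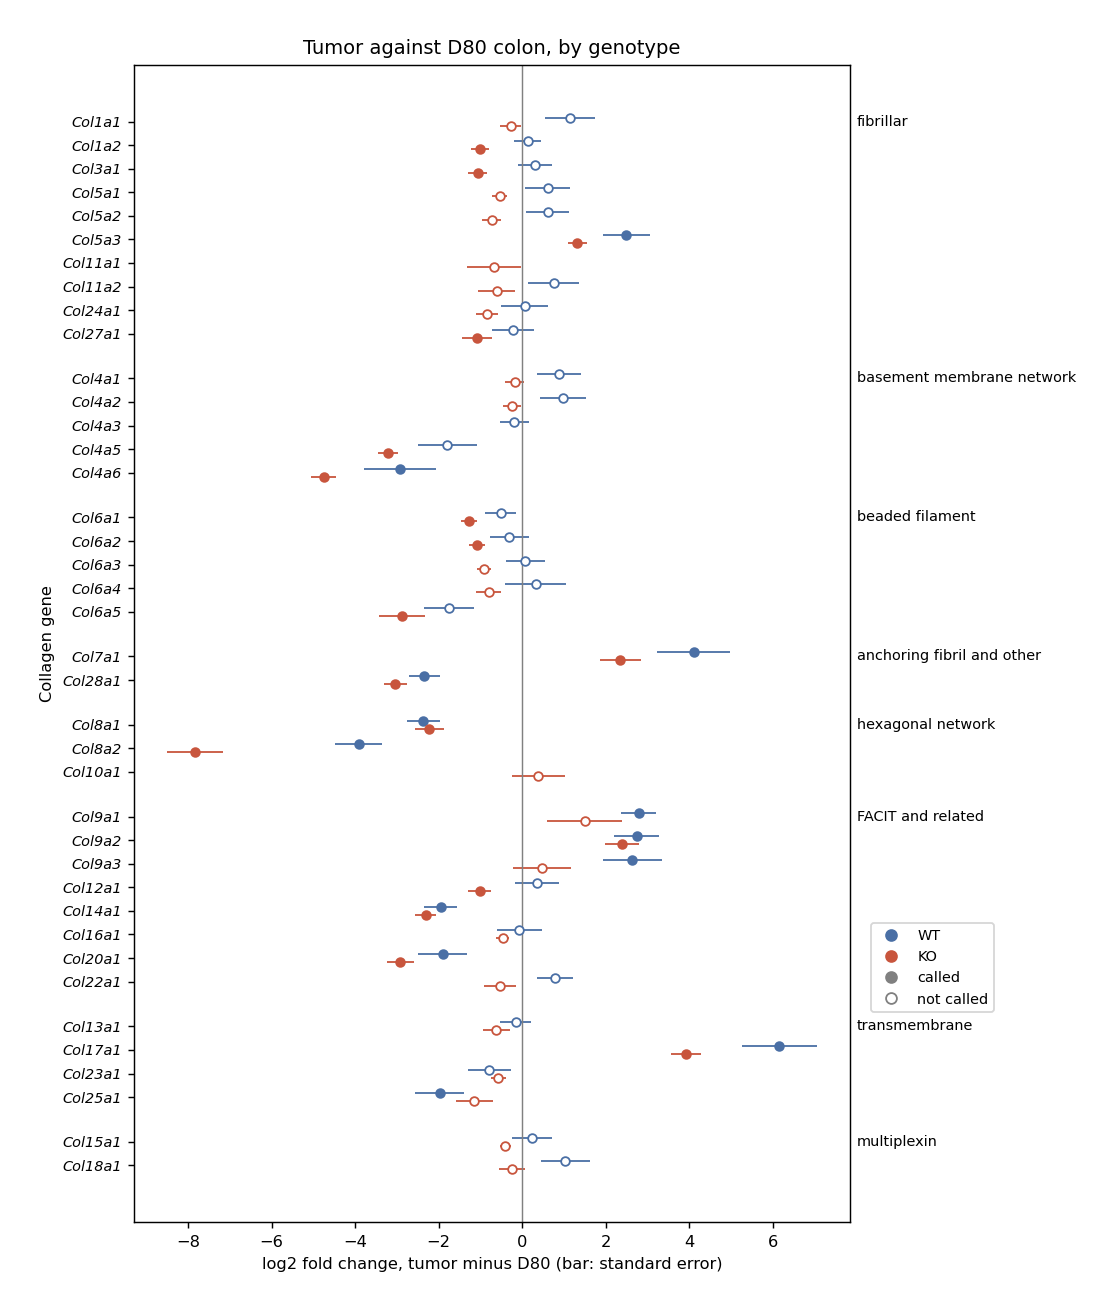
Log2 fold change of tumor over D80 colon (horizontal axis, with SE bars) for each tested collagen gene (vertical axis, by class) in WT (blue) and KO (red) mice, filled where called. *Col17a1*, *Col7a1*, *Col9a2* and *Col5a3* lie right of 0 and *Col8a1*, *Col8a2*, *Col4a6*, *Col14a1*, *Col20a1* and *Col28a1* left of 0 in both genotypes, and the fitted KO value of *Col8a2*, which rests on 1 tumor count, depends on the prior count.

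Markers of muscle, nerve and fibroblasts were lower in tumors than in D80 colon. All 9 smooth muscle markers fell in both genotypes, and their summed level went from 3570 to 4590 CPM in WT D80 colon to 157 to 734 CPM in WT tumors, the highest being tumor 555. The enteric neuron and glia markers also fell, all 7 of them in WT tumors and 6 in KO tumors, as did 7 and 8 of 11 fibroblast markers. The median log2 change of 7 epithelial markers was 0.03 in WT mice and 0.08 in KO mice, where 1 was called lower. The 3 adipocyte markers tested fell in both, as did 2 of 4 pericyte markers, and 3 of 6 endothelial and 3 of 4 leukocyte markers fell in KO tumors, against 1 and 0 in WT tumors. Of the 5 posterior gut genes, 3 rose in tumors of both genotypes (*Hoxd11*, *Hoxd12*, *Hoxd13*), and their summed level was 290 to 478 CPM in WT and 296 to 411 CPM in KO tumors, against 115 to 227 CPM and 109 to 162 CPM in D80 colon. Of the mesothelial markers 1 rose and 1 fell in each genotype, and 1 skeletal muscle marker fell in each. The part of these cell types and of the position along the gut in the collagen values was not tested.

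Among 32 biosynthesis genes, 2 rose and 5 fell in WT tumors, shares near those of all genes (8.0% and 13.5%), and 0 rose and 9 fell in KO tumors (10.3% and 16.4% of all genes). *Plod2*, which hydroxylates lysines for crosslinks, fell by 1.25 ± 0.22 and 1.55 ± 0.21, *Pcolce2* by 2.03 ± 0.30 and 1.34 ± 0.28, and the secretion factor *Mia3* by 1.66 ± 0.27 in KO tumors. Of the degradation genes 5 of 11 rose and 1 fell in WT, and 4 of 12 rose and 2 fell in KO tumors. *Mmp13* rose by 4.23 ± 0.79 in WT and 2.01 ± 0.62 in KO tumors, *Mmp14*, a membrane-bound collagenase, by 1.89 ± 0.37 and 1.02 ± 0.21, and *Mmp9* by 2.50 ± 0.51 and 1.33 ± 0.28. Among 10 tested receptors, the fibroblast receptor *Ddr2* fell by 1.66 ± 0.30 and 1.87 ± 0.19, and *Adgrg1*, an adhesion receptor that binds type III collagen, rose by 1.18 ± 0.21 and 1.09 ± 0.14. In all, 2 receptors rose and 1 fell in WT tumors and 1 rose and 6 fell in KO tumors.

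The study's own question was how the genotypes differ at each stage. No collagen gene was called between KO and WT colon at D0, D19 or D80 in edgeR, where 0.0% of all genes were called in either direction at each of these stages. DESeq2 called 0 collagens there too, against 0.101% of all genes higher and 0.046% lower at D0, 0.62% and 0.26% at D19 and 0.082% and 0.0264% at D80. At an unadjusted p under 0.05 there were 16 of 35 collagens at D0, 2 of 36 at D19 and 4 of 36 at D80 in edgeR, and 18, 3 and 8 in DESeq2. Between tumors, where the rule of the study is an unadjusted p below 0.01 together with a change of over 2-fold, edgeR called 0 of 34 (0.264% of all genes higher and 0.0422% lower), with 0 at an unadjusted p under 0.05. DESeq2 called 1 lower there, *Col8a2* (-4.44, against 0.153% of all genes, and 0.496% higher), which was named after its values were seen. Without KO tumor 544, edgeR called 0 collagens (0.0669% of all genes higher and 0.0206% lower).

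At D0 the values leaned one way. Of 35 tested collagens, 30 had a negative log2 fold change of KO over WT, and the median was -0.55 against 0.007 over all genes. The median was -0.33 without WT mouse 927, with 5 collagens at an unadjusted p under 0.05 in place of 16, and that count was 7, 6 and 8 without WT mouse 851, KO mouse 915 and KO mouse 872, and 23 without WT mouse 918. It was 1 with the libraries of all 8 groups in 1 fit. *Col3a1* (267, 168, 234 and 376 CPM in WT and 211, 178, 165 and 141 CPM in KO) had -0.57 ± 0.22 with an adjusted p of 0.478, and *Col1a1*, *Col1a2*, *Col4a1*, *Col4a2* and *Col6a1* lay between -0.62 and -0.51 with adjusted p of 0.478 to 0.529. WT mouse 927 was the highest of its group in all 6 genes, and the groups overlapped in each. The groups did not overlap in 2 genes, *Col4a4* and *Col25a1*, both lower in KO, against 1.65% of all genes. All 9 smooth muscle markers had negative values too, with summed levels of 6670 to 12600 CPM in WT and 4790 to 9080 CPM in KO colon, and so did all 7 enteric neuron and glia markers, and 0 of either were called. The posterior gut genes *Hoxd13* (3.21, unadjusted p = 0.00891) and *Hoxb13* (2.12, unadjusted p = 0.0275) were higher in KO without passing adjustment, and the summed level of the 5 genes was 45.7 to 97.9 CPM in WT mice and 183, 203, 171 and, in mouse 872, 43.9 CPM in KO mice. Of all other lists, too, 0 genes were called between the genotypes at any stage. The part of muscle, nerve and position along the gut in the collagen values was not tested.

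At D19 the median over 36 collagens was -0.04, and without mouse 811 it was 0.25, with 8 collagens at an unadjusted p under 0.05 in place of 2. That count was 0 without WT mouse 685 or 686 and 1 without WT mouse 805 or KO mouse 813. *Col1a1* was 0.90 ± 0.67 higher in KO (adjusted p = 0.586), *Col1a2* 0.67 ± 0.51, *Col3a1* 0.52 ± 0.57, *Col4a1* 0.53 ± 0.68, *Col4a2* 0.37 ± 0.68 and *Col6a1* 0.02 ± 0.35. These values depended on the number that precedes the mouse number in the labels, whose meaning the labels do not give. A pair of these prefixes holds both genotypes at D19. In the first, *Col1a1* was at 490 CPM in WT mouse 805 and at 957 and 785 CPM in KO mice 803 and 804. In the second it was at 428 CPM in WT mouse 812 and at 97.7 and 358 CPM in KO mice 811 and 813. KO was thus above WT in the first and below it in the second, and WT mice 685 and 686, at 134 and 135 CPM, had a prefix of their own. With the prefix as a block the median was -0.41, and all 6 genes turned negative (-0.42 to -0.08). This fit keeps mouse 811, a KO library of the second prefix, and was not run without it. The part of that library in the change of sign is therefore not known. *Col4a3* and *Col4a4* were lower in each KO library than in each WT library, 2 of 36 genes against 4.85% of all genes.

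At D80, 31 of 36 tested collagens had a positive log2 value of KO against WT (median 0.62), and without WT mouse 581 the median was 0.33, with 14 collagens at an unadjusted p under 0.05 in place of 4. That count was 1 without KO mouse 527, 543 or 544, 2 without WT mouse 555 and 7 without WT mouse 542. *Col1a1* was at 294, 152, 272 and 297 CPM in KO colon against 9.97 (mouse 581), 144, 178 and 85.6 CPM in WT colon, and the groups overlapped (1.27 ± 0.67, adjusted p = 0.681, and 0.89 without mouse 581, adjusted p = 0.432). *Col3a1*, at 131 (mouse 581), 575, 624 and 427 CPM in WT, was higher in each KO library (0.87 ± 0.41, and 0.57 without mouse 581, adjusted p = 0.431). *Col17a1*, *Col22a1* and *Col28a1* did not overlap between the genotypes either, so 4 of 36 were higher without overlap, against 3.34% of all genes. *Col6a1* was at 105 to 126 CPM in KO and 44.7 to 126 CPM in WT colon (0.20 ± 0.27). Within the prefix that holds WT mice 541 and 542 and KO mice 543 and 544, *Col1a1* was at 144 and 178 CPM in WT and 272 and 297 CPM in KO colon, and with the prefix as a block its difference was 0.82 (adjusted p = 0.290). In that fit the median over the collagens was 0.38, with 17 at an unadjusted p under 0.05. Of them 0 were called, beside 0 of 18899 genes in either direction. With the libraries of all 8 groups in 1 fit, 10 collagens had an unadjusted p under 0.05 and 0 were called.

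Between tumors 28 of 34 tested collagens had a negative value in KO, with a median of -0.24. The median was -0.13 without KO tumor 544, -0.39 without KO tumor 543 and -0.16 without WT tumor 541, and 6 collagens had an unadjusted p under 0.05 without WT tumor 534 and 3 without KO tumor 543, in place of 0. *Col3a1* was at 364, 601, 494, 643 and 814 CPM in WT and at 341, 528 and 316 CPM in KO tumors (-0.52 ± 0.28, adjusted p = 0.699), and *Col1a1* at 191, 293, 200, 282 and 273 CPM in WT and 208, 214 and 215 CPM in KO tumors (-0.17 ± 0.20). The groups overlapped in each tested collagen. *Col4a5* had the smallest p (-1.35 ± 0.71, adjusted p = 0.699), with WT tumor 555 far above the other WT tumors. The difference between the genotypes in the change from D80 colon to tumor was also tested: 0 of 40 collagens were called (0.0% of all genes in either direction), with 6 at an unadjusted p under 0.05, a lowest adjusted p of 0.419 and a median of -1.11, which was -0.62 without the libraries that stand apart. DESeq2 called 0 here (0.0% in either direction), with 9 at an unadjusted p under 0.05.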

How the data were processed

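Whole-colon and tumor RNA of 32 libraries was sequenced by the authors. By the Methods and the submitters' processing notes, read quality was checked with FastQC (0.11.5), reads were aligned to mm10 with STAR and counted per GENCODE M25 gene with Subread, and the deposited values are raw counts per gene. Whether strand was used in counting is not given in the sources used here. No column of the counts lacked a sample.

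Groups follow the labels. Each comparison was fitted on the libraries of its groups alone with edgeR 4.0.16 (R 4.3.3, limma 3.58.1) after TMM normalization and filterByExpr, with the quasi-likelihood test over all genes and Benjamini-Hochberg adjustment. A gene was called at an adjusted p below 0.05 with a change of over 2-fold, except between tumors, where the unadjusted p had to be below 0.01. DESeq2 1.42.0, the tool of the study, was an alternative, and the scripts were tested on simulated data. Exon lengths and positions came from GENCODE M21 (GRCm38), and upstream sequences from RefSeq (GRCm38.p6). Intervals cover counting error only.

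The collagen genes, the other gene lists and the tests were chosen with earlier results of these data known. Genes were named by a rule: *Col1a1*, *Col1a2*, *Col3a1*, *Col4a1*, *Col4a2* and *Col6a1*, up to 8 called genes per direction with the smallest p and no overlap between groups, the highest gene of each class and up to 4 genes of each other list. Further genes were named after their values were seen.

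Mice that gave a D80 colon and a tumor are the same animal by the labels. Over 22347 genes their deviations from the group means correlated with r of 0.0376 to 0.188.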

Additional observations from a re-analysis of the deposited data

Results flagged for a closer look

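Single libraries far from the rest of their group were looked for in 210 groups of collagen values, where chance gives about 10.5, and 16 were found.

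Those of WT D80 mouse 581 were all low: *Col14a1* at 9.69 CPM (38.6 to 42.8 CPM in the other 3 mice), *Col20a1* at 0.0563 CPM (1.14 to 1.26 CPM), *Col27a1* at 0.507 CPM (5.26 to 5.71 CPM) and *Col28a1* at 1.18 CPM (4.48 to 4.96 CPM). KO D19 mouse 811 was low in *Col20a1* at 0.101 CPM, against 3.02 to 3.32 CPM. Both libraries had the highest mitochondrial share of their group (15.1% and 10.6%), whose part in these values was not tested. Untreated D0 libraries had shares of 7.27% to 11.7%.

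KO D80 mouse 535, which gave no tumor library, was low in *Col9a3* at 1.18 CPM (15.9 to 16.7 CPM in the others), in *Col12a1* at 81.6 CPM (156 to 171 CPM) and in *Col4a1* at 217 CPM (334 to 352 CPM). KO D80 mouse 544 was high in *Col28a1* at 6.54 CPM, against 5.22 to 5.36 CPM. WT D80 mouse 542 was high in *Col9a3* at 6.75 CPM, against 0.394 to 1.37 CPM.

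WT tumor 555 was high in *Col4a5* at 7.63 CPM, against 0.71 to 2.41 CPM, and it also had the highest summed smooth muscle markers of the WT tumors (734 CPM against 157 to 390 CPM). In WT D0 colon, mouse 927 was high in *Col4a5* at 8.0 CPM (3.04 to 3.62 CPM) and in *Col9a1* at 0.156 CPM, with 0 in the others, and mouse 918 was low in *Col27a1* at 7.42 CPM (13.4 to 14.5 CPM). KO D0 mouse 915 was low in *Col6a4* at 3.55 CPM, against 4.2 to 4.27 CPM, and WT D19 mouse 812 was high in *Col14a1* at 61.5 CPM, against 38.5 to 40.0 CPM.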

How the results depend on the processing

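Of the values of named genes under other tools, filters, scalings and fits, 646 kept their direction and side of the threshold, 7 gained and 14 lost the call and 8 changed sign. The cause was not tested. With DESeq2, 2 collagens fell at D19 in WT colon, 4 rose and 1 fell at D80 against D0 in WT colon, 1 (WT) and 5 (KO) rose from D19 to D80, and 1 was lower in KO tumors. Without a filter 3 rose at D80 in WT colon, beside 1559 of 33209 genes, and 1 was lower in KO tumors, beside 30 of 33437. With at least 10 counts in each library, which leaves fewer genes tested, 0 fell at D19 in WT colon, beside 547 of 16132 genes. At that filter 0 fell at D80 against D0 in KO colon, beside 1059 of 16549, and 0 rose from D19 to D80 there, beside 124 of 16785. In WT tumors 2 rose and 3 fell, beside 913 and 1712 of 15364. With all libraries in 1 fit, 10 rose and 0 fell at D19 in WT colon, beside 1745 and 579 of 21338 genes. At D80 against D0, 3 rose and 1 fell in WT colon, beside 2005 and 923 genes, and 0 fell in KO colon, beside 1334. From D19 to D80, 1 (WT) and 3 (KO) rose, beside 62 and 434 genes. In KO tumors 9 fell, beside 3230 genes, and 1 was lower in KO than in WT tumors, beside 89. Without the libraries that stand apart, 22 rose at D19 in KO colon, 12 rose and 1 fell at D80 in WT colon, 2 fell from D19 to D80 in KO colon and 11 fell in WT tumors. *Col6a1* then turned to -0.024 between the genotypes at D80 and *Col1a2* to -0.12 in WT tumors.

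With the label prefix as a block, the differences between KO and WT at D19 turned to -0.084 for *Col1a1*, -0.10 for *Col1a2*, -0.36 for *Col3a1*, -0.24 for *Col4a1*, -0.42 for *Col4a2* and -0.34 for *Col6a1*, and 1 collagen, *Col17a1* (-1.52), was lower in KO tumors. With the mouse as a replicate block, 10 collagens fell in WT and 14 in KO tumors.

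Leaving out 1 library at a time gave 0 to 2 genes that fell at D19 in WT and 6 to 22 that rose in KO colon, 1 to 12 that rose and 0 to 1 that fell at D80 in WT and 0 to 1 that fell in KO colon, 0 to 3 that rose and 0 to 2 that fell from D19 to D80 in KO colon, and 4 to 11 that fell in WT tumors. The median of D80 over D0 in KO colon ranged from 1.06 to 1.54. Between the genotypes, *Col4a2* ranged from -0.0595 to 0.742 and *Col6a1* from -0.26 to 0.24 at D19, both lowest without KO mouse 803, and *Col6a1* from -0.024 to 0.33 at D80. *Col1a2* in WT tumors ranged from -0.12 to 0.34. Genes under 1 CPM rest on few counts. Below edgeR's filter, DESeq2 called *Col26a1* lower at D19 in WT colon (-1.73), and *Col2a1* higher at D80 in KO colon (3.42 against D0 and 4.46 against D19).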

Other observations

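Type I collagen is built from chains of *Col1a1* and *Col1a2*, and the ratio of their counts differed between tissues. It was 0.954 to 1.03 in WT and 0.891 to 1.08 in KO D0 colon, 0.623 to 0.864 in WT and 0.428 (mouse 811) to 1.0 in KO D19 colon. In D80 colon it was 0.132 (mouse 581) and 0.507 to 0.671 in WT and 0.588 to 0.79 in KO mice, and in tumors it was 0.984 to 1.23 in WT and 0.988 to 1.47 in KO mice. Every tumor lay above every D80 colon of its genotype. In a two-sided exact permutation test of tumor against D80 colon, p was 0.0159 in WT (0.0357 without mouse 581) and 0.0571 in KO mice, each the smallest this design can give. The test treats the libraries as independent, although 3 mice of each genotype gave both tissues. Without KO tumor 544 p was 0.133, again the smallest possible. The ratio was chosen after its values were seen, so these p-values are descriptive.

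The ratio of *Col4a1* to *Col4a2* counts stayed between 1.21 and 1.80 in every library. That of *Col4a5* to *Col4a6*, which also share a start region, was 1.51 to 2.81 in D0 and 2.12 to 7.16 in D19 colon. It was 2.6 to 4.67 in D80 colon and 4.67 to 21.0 in tumors, so D19 colon and tumors overlapped. The tumor ratios rest on few *Col4a6* counts, 83 in all WT and 10 in all KO tumors.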
